A study of Drosophila melanogaster with 3 samples.

Results

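Chromosome 4 of Drosophila melanogaster is the smallest autosome of the fly, and the genes described here are those of a list of 56 names placed on it. The autosomal table held 53 of these names, and 51 genes passed a minimum mean level of 1 count per 1000000 transcript counts (CPM), out of 14161 genes in the whole series. Genes with a mean just below the minimum were fd102C (0.668 CPM) and CG9935 (0.862 CPM), and just above it were sv (1.18 CPM) and ey (2.71 CPM). Of the names not found, Zip102B is the gene listed as CG2177, RfaBp is listed as Rfabg and Arl4 as CG2219. Rfabg and CG2219 were not matched by the listed names and are not among the 51. The Release 6 annotation placed all 53 genes found on chromosome 4. Each gene was represented by its most abundant transcript, by the mean of the 3 columns.

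Larvae of the third instar were sequenced as metafemales, males and females, with 3 biological repeats of each that the authors pooled into 1 value per transcript. Metafemales are flies with an additional X chromosome, so the series covers 1 X in males, 2 in females and 3 in metafemales. All stocks were kept at 20 degrees, and total RNA was extracted with TRIzol and made into Illumina TruSeq libraries. The labels give no strain, cross, number of larvae per library or copy number of chromosome 4 for any group, and the larvae are therefore compared as labelled. With 1 column per group there is no test, no p-value and no replicate check, and every comparison below is a description of these pooled values.

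Most genes of chromosome 4 are expressed although the chromosome is largely packaged as heterochromatin, the compact form marked by the protein HP1a. A chromosome-specific protein, the product of Pof, binds these genes and raises their output, in a way often likened to dosage compensation of the X. The dosage compensation complex with its RNAs roX1 and roX2 does the corresponding work on the male X. The listed genes include regulators of development such as ci, ey, toy and pan, guidance receptors and ligands, and synaptic proteins.

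Library totals inferred from the steps between low values lay between 69.0 and 112 M counts for metafemales, between 31.6 and 92.4 M for males and between 65.6 and 89.2 M for females. Tables of X-linked transcripts held 19.6% of counts in metafemales, 14.8% in males and 16.2% in females. The summed level of roX1 and roX2 was 17.8 CPM in metafemales, 439 CPM in males and 20.9 CPM in females, and the summed level of 10 testis genes was 10.3, 294 and 11.5 CPM in the same order of groups. Larval tissues were present in every group, with 6 fat body genes at a summed 32392 CPM in metafemales, 26362 CPM in males and 27465 CPM in females. Members of this list went both ways in metafemales over females, from 2.51 (Lsp1alpha) to -2.45 (Fbp1) with a median of -0.48 (log2). Summed muscle markers (10 genes) stood at 21489 CPM in metafemales, 4716 CPM in males and 6422 CPM in females, and 8 imaginal disc markers stood at 59.6, 130 and 133 CPM. Summed neuronal markers (9 genes found of 10 names) were 141 CPM in metafemales, 108 CPM in males and 144 CPM in females. No marker of these lists was listed at 0 in any group, and their part in the results for chromosome 4 was not tested.

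Metafemales against females compare larvae with and without an additional X at genes of another chromosome, and the groups may differ in more than the X. Of 51 chromosome 4 genes, 7 were at least 2-fold lower in metafemales and 0 were 2-fold higher, with log2 fold changes taken on value + 1 CPM. Of the 9157 other autosomal genes, 12.3% were 2-fold lower and 4.28% were 2-fold higher, so the share of lower genes (13.7%) lay near the background. At a fold of 1.5 the counts were 16 lower and 0 higher, beside 30.8% and 8.14% of the other genes. From 10 CPM upwards, 7 of 41 were 2-fold lower and 0 higher, beside 16.0% and 5.01%. The 7 genes were CG31997, Arf102F, pho, zfh2, ci, CG32850 and Crk. Of the listed genes left out because their names did not match, CG2219 (Arl4) stood at -1.06 (log2) and Rfabg (RfaBp) at 0.69. With median-of-ratios scaling, which changes the metafemale to female ratio by 0.41 (log2), CG31997 was the 1 gene still past 2-fold, and the rest of the table then had 4.85% lower and 7.84% higher. Of the muscle markers 7 of 10 were 2-fold higher in metafemales than in females, and of the disc markers 6 of 8 were lower; their part in these counts was not tested. In RNA from larvae, fewer cells of a type and less RNA per cell cannot be told apart.

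The median chromosome 4 gene had a log2 fold change of -0.41 in metafemales over females, against -0.29 for the rest of the autosomal table, a difference of -0.12. This difference was within -0.05 to 0.01 when the added 1 CPM was reduced or dropped, -0.03 with the minimum level set at 10 CPM and -0.24 with no minimum level. With median-of-ratios scaling the medians were -0.03 and -0.02. The size of the offset thus depended on the scaling and on the handling of low values. X-linked genes (1734) had a median of 0.03 as deposited. Values below 0 were seen in 47 of 51 chromosome 4 genes (27 with median-of-ratios scaling), against 75.9% of the other genes (52.7% with that scaling). From 10 CPM upwards they were 39 of 41, against 75.8%.

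**Figure D1:**
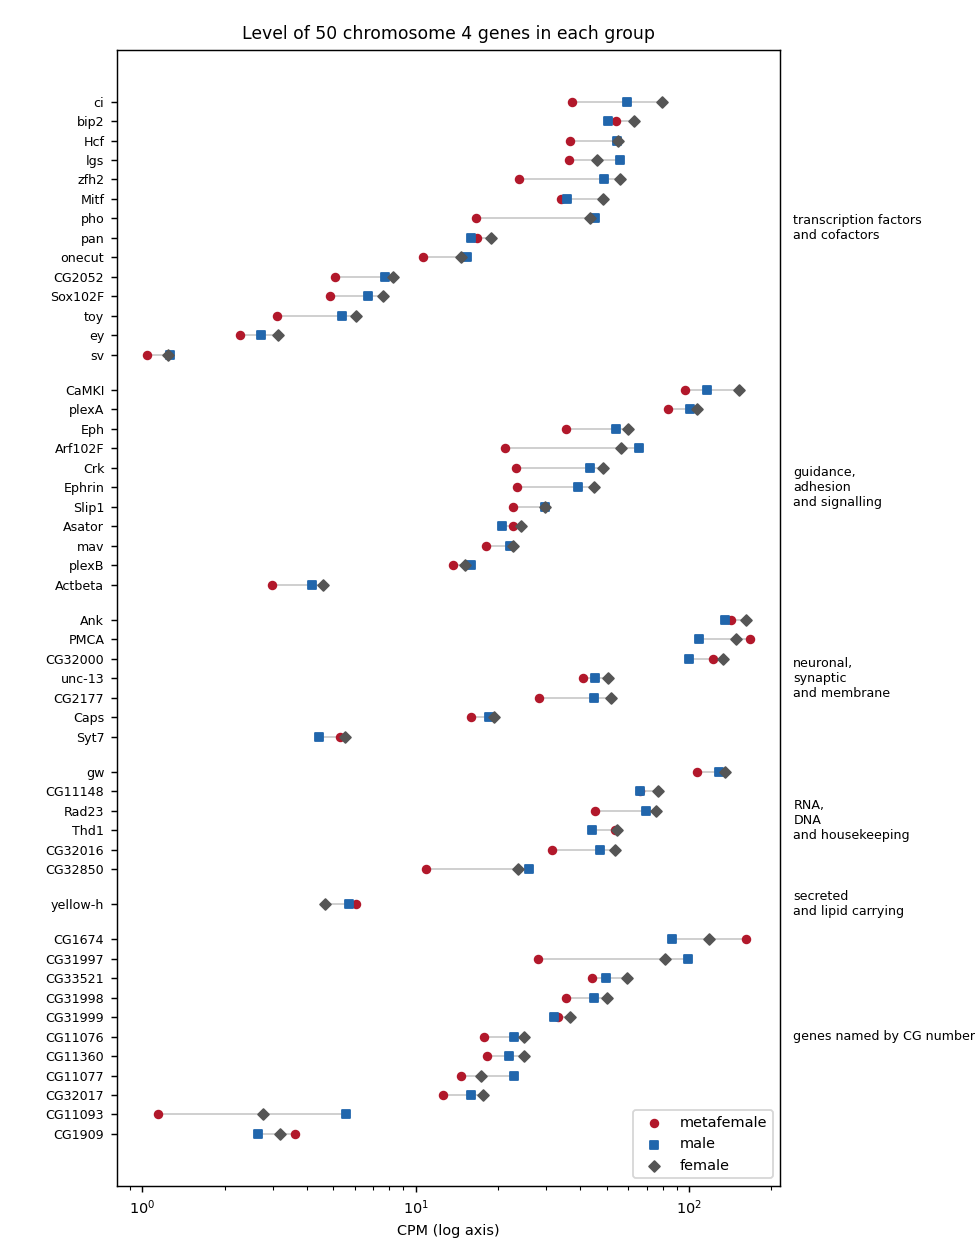
Level of each of 50 of the 51 chromosome 4 genes in metafemales (circles), males (squares) and females (diamonds) in CPM on a log axis, with the genes grouped by role; each point is 1 pooled value and no error is drawn. Most genes hold their 3 points close together, while CG11093, CG31997, Arf102F and pho spread widest.

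Transcription factors and cofactors were the largest role group, with 14 of 15 listed genes kept. Their median was -0.53 in metafemales over females (-0.13 with median-of-ratios scaling), with 3 genes 2-fold lower (0 with that scaling), 0 higher and 11 within 2-fold, beside 12.3% lower and 4.28% higher in the rest (4.85% and 7.84% with that scaling). The gene pho encodes a DNA-binding protein of the Polycomb group, which keeps developmental genes silent. It stood at 16.6 CPM in metafemales, 45.1 CPM in males and 43.3 CPM in females. The metafemale to female ratio was 0.383 (0.370 to 0.397), an interval that covers counting error only, like all those below. Metafemales alone were low here, since males and females differed by a ratio of 1.04.

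The homeodomain and zinc finger gene zfh2, which acts in the wing hinge and in neurons, had 23.8 CPM in metafemales, 48.7 CPM in males and 55.9 CPM in females. Its metafemale to female ratio was 0.425 (0.413 to 0.438). The Hedgehog pathway is read out by ci, a zinc finger transcription factor of wing and other discs. This gene had 37.2 CPM in metafemales, 59.1 CPM in males and 79.9 CPM in females, with a ratio of 0.466 (0.455 to 0.478) for metafemales over females and of 0.739 (0.721 to 0.757) for males over females. It was thus lower than in females in both other groups, by less than 2-fold in males. With median-of-ratios scaling zfh2 and ci stood at -0.80 and -0.68 (log2) in metafemales over females, within 2-fold. The summed disc markers above were lowest in metafemales as deposited. Of these markers 6 of 8 were 2-fold lower than in females, beside 12.3% of the rest of the autosomal table. The part of disc tissue in the levels of zfh2 and ci was not tested.

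The remaining transcription factors lay within 2-fold of females. Eye development starts from the Pax6 genes toy and ey. The first had 3.11 CPM in metafemales, 5.39 CPM in males and 6.05 CPM in females, and the second had 2.27, 2.71 and 3.14 CPM. Both had their lowest level in metafemales as deposited, with log2 fold changes over females of -0.78 for toy and -0.34 for ey (-0.45 and -0.04 with median-of-ratios scaling). With that scaling ey was higher in metafemales than in males (0.14), and toy was still lower (-0.28). Wnt signalling reaches its targets through pan, the fly TCF, and its adaptor lgs. The level of pan was 16.8 CPM in metafemales, 15.9 CPM in males and 18.9 CPM in females, one of the narrower ranges of the list as deposited. For lgs it was 36.5 CPM in metafemales, 56.1 CPM in males and 46.1 CPM in females, so that males stood highest.

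Among cofactors of general transcription, bip2 encodes the TFIID subunit Taf3 and Hcf the host cell factor. The level of bip2 was 53.9 CPM in metafemales, 50.4 CPM in males and 63.0 CPM in females. For Hcf it was 36.6 CPM in metafemales, 54.5 CPM in males and 54.8 CPM in females, and the male and female values did not differ beyond counting error. Mitf, a regulator of lysosome genes, had 33.9, 35.9 and 48.5 CPM in metafemales, males and females, highest in females. Of the factors at lower levels, Sox102F had 4.85, 6.67 and 7.58 CPM in those groups, and CG2052 (now dati) had 5.06, 7.70 and 8.29 CPM. The factors onecut (10.6, 15.4 and 14.6 CPM) and the Pax2 gene sv (1.04, 1.26 and 1.24 CPM) were lowest in metafemales as deposited, and their male and female values did not differ beyond counting error. With median-of-ratios scaling sv turned to 0.09 in metafemales over both females and males, and onecut stood at -0.04 over females and -0.08 over males.

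Guidance, adhesion and signalling genes (11 of 12 listed kept) had a median of -0.48 in metafemales over females (-0.16 with median-of-ratios scaling). As deposited 2 of them were 2-fold lower (0 with that scaling), 0 higher and 9 within 2-fold, beside the same 12.3% and 4.28% of the rest. Arl4, present as CG2219 and not counted here, stood at -1.06 (log2). Arf102F, a small GTPase of membrane traffic, had 21.2 CPM in metafemales, 65.4 CPM in males and 56.5 CPM in females. Its ratio was 0.375 (0.364 to 0.387) for metafemales over females and 0.324 (0.314 to 0.335) for metafemales over males. The adaptor gene Crk, which links phosphorylated receptors to small GTPases, had 23.2 CPM in metafemales, 43.5 CPM in males and 48.3 CPM in females, a ratio of 0.480 (0.465 to 0.495) for metafemales over females. This gene lay near the limit, at -1.03 as deposited and at -0.97 when values were scaled to the autosomal table.

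Eph is a receptor tyrosine kinase of axon guidance and Ephrin its membrane-bound ligand. Ephrin had 23.4 CPM in metafemales, 39.2 CPM in males and 44.8 CPM in females (log2 -0.91 for metafemales over females). Eph had 35.5 CPM in metafemales, 54.1 CPM in males and 59.8 CPM in females (-0.74). Ligand and receptor gave the same order of groups, an order that most of the listed genes had as deposited. After median-of-ratios scaling the values of Ephrin and Eph were -0.51 and -0.33. The semaphorin receptors had smaller differences, with plexA at 83.6, 101 and 107 CPM in metafemales, males and females and plexB at 13.7, 15.9 and 15.2 CPM.

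Kinases differed from each other. CaMKI, a calcium-dependent kinase, had 96.7 CPM in metafemales, 116 CPM in males and 152 CPM in females, highest in females, which stood 1.57-fold above metafemales and 1.31-fold above males. Asator, a tau tubulin kinase, kept within 22.6, 20.7 and 24.3 CPM in metafemales, males and females. Ligands of the TGF-beta family were mav (18.1, 22.1 and 22.6 CPM in the same groups) and Actbeta (2.99, 4.17 and 4.57 CPM), and in both the male and female values did not differ beyond counting error. Slip1, a binding partner of the Slowpoke potassium channel, had 22.6, 29.7 and 29.8 CPM.

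Neuronal, synaptic and membrane genes (7 kept) were all within 2-fold in metafemales over females, as were 83.5% of the rest of the autosomal table. Their median of -0.17 turned to 0.24 with median-of-ratios scaling. PMCA, the calcium pump of the plasma membrane, had 167 CPM in metafemales, 109 CPM in males and 148 CPM in females. It was highest in metafemales, with ratios of 1.13 (1.12 to 1.15) over females and 1.53 over males. The other extreme was the zinc transporter gene CG2177, at 28.2 CPM in metafemales, 44.8 CPM in males and 51.8 CPM in females (log2 -0.85 for metafemales over females).

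Vesicle release genes varied little as deposited. The priming factor unc-13 had 40.9 CPM in metafemales, 45.3 CPM in males and 50.7 CPM in females. Caps, needed for dense-core vesicle release, had 15.9, 18.6 and 19.4 CPM in those groups, and the calcium sensor Syt7 had 5.27, 4.41 and 5.51 CPM. With median-of-ratios scaling Syt7 stood at 0.59 (log2) in metafemales over males, unc-13 at 0.29 and Caps at 0.22. The membrane skeleton gene Ank stood at 143 CPM in metafemales, 136 CPM in males and 161 CPM in females, and the P-type ATPase gene CG32000 (now anne) at 122, 100 and 133 CPM. All 7 genes of the group were lower in males than in females as deposited and with both other scalings, by -0.06 to -0.43 (log2) as deposited. In the same comparison 78.4% of all 51 listed genes and 50.7% of the rest were below 0 as deposited. Of the neuronal markers found, 9 of 9 lay within 2-fold in males over females, as did 82.3% of the rest of the autosomal table. The median of these markers was -0.40. Their part in the values of this group was not tested.

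RNA, DNA and housekeeping genes (7 kept) had a median of -0.34 in metafemales over females (0.07 with median-of-ratios scaling), with 1 gene (14.3%) 2-fold lower (0 with that scaling), near the 12.3% of the rest, and 6 within. The lower gene was CG32850 (now Rnf11), a RING finger protein gene, at 10.9 CPM in metafemales, 26.0 CPM in males and 23.6 CPM in females. Translational repression and microRNA silencing are represented by gw, CG32016 and CG11148. The first, gw, encodes the silencing factor GW182 and had 107 CPM in metafemales, 129 CPM in males and 135 CPM in females. CG32016 encodes the eIF4E-binding 4E-T and had 31.6 CPM in metafemales, 47.4 CPM in males and 53.5 CPM in females. CG11148 encodes a GYF domain protein and had 66.1, 66.4 and 76.7 CPM, with metafemales and males alike within counting error as deposited.

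Rad23, which carries ubiquitinated proteins to the proteasome and takes part in DNA repair, had 45.1 CPM in metafemales, 69.4 CPM in males and 75.6 CPM in females. Thd1, a thymine DNA glycosylase, had 53.4 CPM in metafemales, 44.3 CPM in males and 54.6 CPM in females, and was the gene whose metafemale and female values were closest as deposited (ratio 0.978). With median-of-ratios scaling it stood at 0.37 (log2), and CG33521 (0.00) was closest. The secreted protein gene yellow-h was the 1 kept gene of its group, with 6.04 CPM in metafemales, 5.70 CPM in males and 4.65 CPM in females.

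Genes known by CG number (11 kept) had a median of -0.43 in metafemales over females (-0.03 with median-of-ratios scaling). In this comparison 1 of them (9.09%) was 2-fold lower and 0 higher, beside 12.3% and 4.28% of the rest. Their quartiles lay 0.29 (log2) apart, while single genes among them held the widest differences of the list. CG31997 had 28.1 CPM in metafemales, 99.3 CPM in males and 81.6 CPM in females. Its ratio was 0.345 (0.335 to 0.354) for metafemales over females and 0.283 (0.275 to 0.291) for metafemales over males, and it stayed past 2-fold with each scaling. CG1674 went the other way, with 162 CPM in metafemales, 86.3 CPM in males and 118 CPM in females, a ratio of 1.38 (1.36 to 1.40) for metafemales over females and 1.88 (1.85 to 1.92) for metafemales over males. CG11093, now fuss and related to the Ski and Sno corepressors, had the largest ratio of its highest to its lowest level (4.90), with 1.14 CPM in metafemales, 5.57 CPM in males and 2.76 CPM in females. Because it is low, the added 1 CPM kept it within 2-fold of females in both comparisons (-0.82 and 0.81), and without it the values were -1.28 and 1.01.

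The other genes of this kind lay within 2-fold of females in both groups. CG11077 (now Mpv17) was highest in males, at 14.6 CPM in metafemales, 22.9 CPM in males and 17.3 CPM in females. Those with lower values in metafemales than in males and in males than in females were CG31998 (35.5, 44.9 and 49.9 CPM), CG33521 (44.2, 49.5 and 59.1 CPM), CG11076 (17.7, 22.9 and 24.9 CPM), CG11360 (18.3, 21.9 and 25.0 CPM) and CG32017 (12.6, 15.9 and 17.6 CPM), given as metafemale, male and female levels as deposited. With median-of-ratios scaling the metafemale over male values of all 5 turned positive (0.07 to 0.28, log2). CG31999 had the narrowest range of the list as deposited, a ratio of 1.15 between its highest and lowest level, at 33.2 CPM in metafemales, 32.0 CPM in males and 36.8 CPM in females. With median-of-ratios scaling it was 0.49 (log2) higher in metafemales than in males. Most listed genes then had narrower ranges, among them Slip1, onecut and sv. CG1909 had 3.62, 2.65 and 3.18 CPM in those groups.

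**Figure D2:**
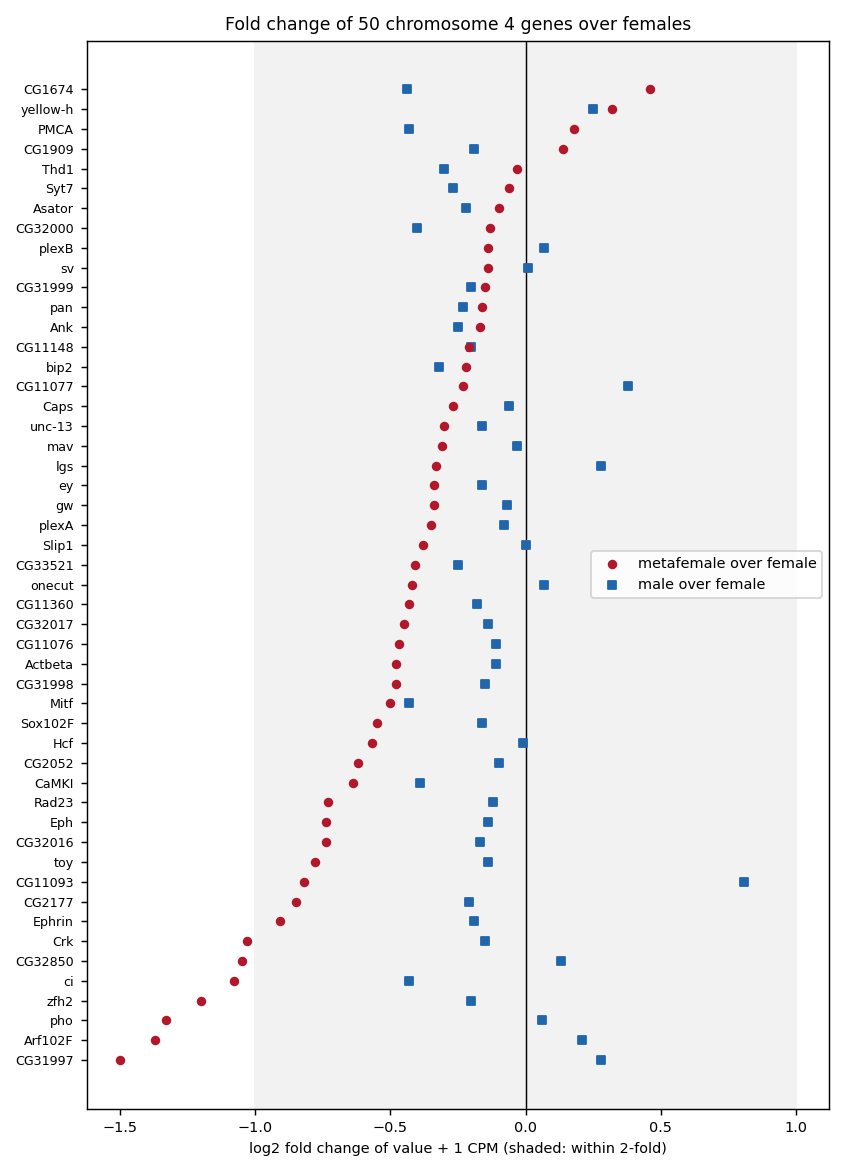
Log2 fold change (value + 1 CPM) of each of 50 of the 51 chromosome 4 genes in metafemales over females (circles) and in males over females (squares), sorted by the first; the shaded band is within 2-fold. Both comparisons share the female column. Of the circles, 7 lie below the band and 0 above it as deposited (1 below it with median-of-ratios scaling), and all squares drawn lie inside it.

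Males against females compare chromosome 4 between larvae that differ in sex and in the number of X chromosomes. In this comparison 0 of 51 chromosome 4 genes were 2-fold higher and 0 were 2-fold lower, while 15.9% of the rest of the autosomal table were higher and 1.79% lower. With median-of-ratios scaling the counts were again 0 and 0, beside 15.4% and 1.84% of the rest. At a fold of 1.5, 1 gene was higher (CG11093) and 0 were lower, against 20.7% and 6.26% of the rest. The highest values after CG11093 (0.81, log2) were CG11077 (0.38), lgs (0.28), CG31997 (0.28) and yellow-h (0.25). The lowest were CG1674 (-0.44), Mitf, PMCA and ci (each -0.43) and CG32000 (-0.40).

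The list also had a narrow spread in males over females. The distance between the quartiles of the 51 genes was 0.21 (log2), against 0.63 for the rest of the autosomal table and between 0.58 and 0.74 for the genes of the arms 2L, 2R, 3L and 3R. The testis markers that passed the minimum level were 2-fold higher in males than in females in 8 of 8 cases. Some passed it through the male column only, such as can (0.0968, 5.67 and 0.149 CPM in metafemales, males and females). The filter thus favours such a count, though aly (1.71, log2) and comr (1.11), under the minimum, were also higher in males. Genes of the rest can pass in the same way, so shares at low means can partly reflect the filter. The part of testis genes in the spread of the rest was not tested. Most of the rest that were 2-fold higher in males had low means: 27.5% of those from 1 to under 10 CPM were higher, but 5.85% of those at 10 CPM or more, where 2.19% were lower. At that level 41 chromosome 4 genes remained, 0 of them past 2-fold in either direction, and the distances between quartiles were 0.21 on chromosome 4 and 0.47 in the rest. From 10 to under 50 CPM these distances were 0.23 for 26 chromosome 4 genes and 0.47 for the rest, and at 50 CPM or more they were 0.23 for 15 and 0.48 for the rest.

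The median male over female value was -0.15 on chromosome 4 and -0.01 in the rest of the table, a difference of -0.14 that lay between -0.16 and -0.09 over 9 alternatives. Values below 0 were found in 40 of 51 genes, against 50.7% of the rest, and in 33 of 41 genes from 10 CPM upwards, against 58.4%. With median-of-ratios scaling 41 of 51 genes were below 0, against 53.9% of the rest. The counting interval of a single gene reached a median of 0.04 and at most 0.26 (log2) to either side, and the spread between libraries is not in these columns.

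**Figure D3:**
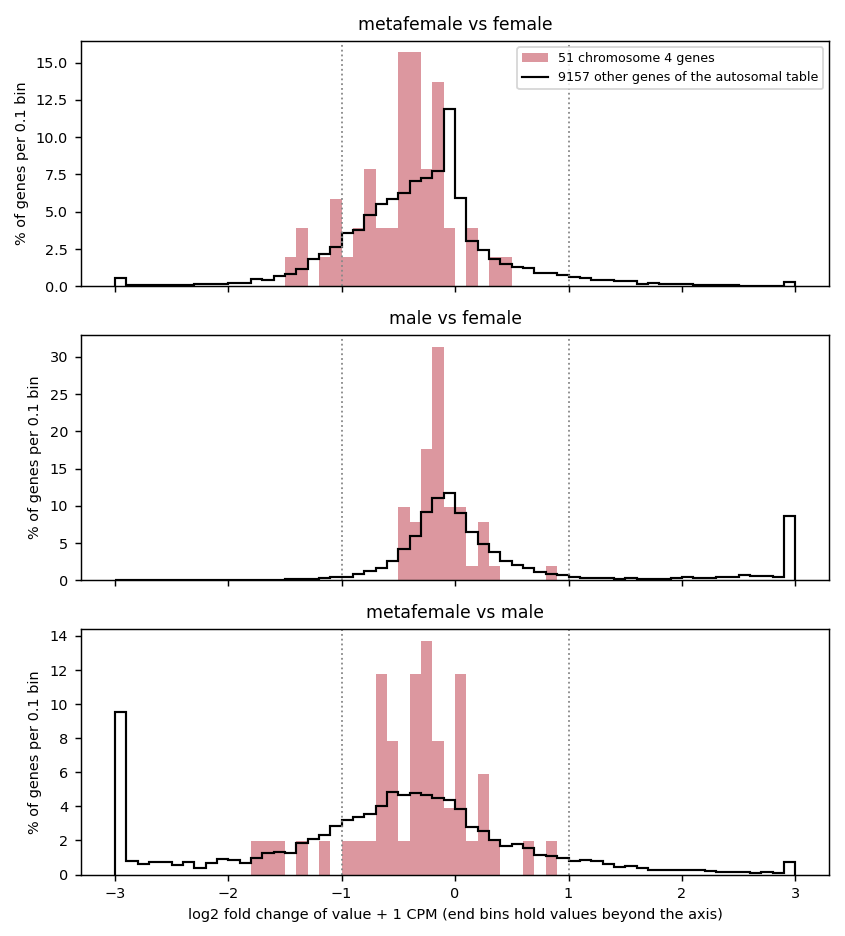
Share of genes per bin of 0.1 in log2 fold change (value + 1 CPM), for 51 chromosome 4 genes (filled) and 9157 other genes of the autosomal table (line), in metafemales over females, males over females and metafemales over males; dotted lines mark 2-fold and the end bins hold all values beyond the axis. In males over females the filled bars lie between -0.44 and 0.81, inside the dotted lines, and the line has a tail on the right.

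Metafemales over males combine both ends of the X series and share each column with a comparison above. The median was -0.28 for chromosome 4 and -0.50 for the rest, a difference of 0.23 that was 0.06 with no minimum level and 0.12 with a minimum of 10 CPM. With median-of-ratios scaling the first median turned to 0.11 and the second was -0.10. Of 51 genes 6 were 2-fold lower and 0 higher as deposited (3 and 2 with median-of-ratios scaling), against 31.2% lower and 7.47% higher in the rest (22.1% and 12.3% with that scaling). The lower genes were CG31997 (-1.79), CG11093 (-1.62), Arf102F (-1.58), pho (-1.39), CG32850 (-1.18) and zfh2 (a ratio of 0.488). CG1674 (0.90) and PMCA (0.61) had the highest values and passed 2-fold with median-of-ratios scaling only (1.35 and 1.05). At a fold of 1.5, 15 genes were lower and 2 higher, beside 46.0% and 12.4% of the rest. With at least 10 CPM 5 of 41 were 2-fold lower and 0 higher, beside 23.4% and 8.93%. Values below 0 were found in 38 of 51 genes as deposited (21 with median-of-ratios scaling), against 73.1% of the rest (54.8%), and in 31 of 41 genes from 10 CPM upwards, against 70.1%. The quartiles of chromosome 4 genes lay 0.62 apart, and those of the rest 1.28.

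Known regulators of the chromosome did not move together. Pof had 5.56 CPM in metafemales, 74.5 CPM in males and 7.77 CPM in females, so its level in males was far above the others. The gene that encodes HP1a had 31.8 CPM in metafemales, 93.8 CPM in males and 93.7 CPM in females, low in metafemales alone. The gene egg, which encodes the histone methyltransferase that acts on chromosome 4, had 13.5, 16.0 and 17.0 CPM in metafemales, males and females. Su(var)3-7 had 25.4, 30.0 and 33.0 CPM. Su(var)3-9 had log2 fold changes over females of -0.51 in metafemales and -0.13 in males, and the X-linked Hmt4-20 had 65.4, 59.3 and 74.0 CPM in metafemales, males and females. The male level of Pof and the metafemale level of the HP1a gene stand beside male and metafemale chromosome 4 medians of -0.15 and -0.41 over females, and their part in these medians was not tested.

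The 7 genes that were lower in metafemales were 2nd (ci), 6th (CG31997), 9th (Crk), 16th (CG32850), 24th (zfh2), 46th (Arf102F) and 48th (pho) in the order of the 51. The 4th of 5 consecutive blocks of 10 or 11 genes, from Slip1 to plexA, held 0 of them. Medians of the 5 blocks ran from -0.59 to -0.17 in metafemales over females and from -0.20 to -0.09 in males over females. Genes next to each other in this order differed by a median of 0.34 (log2) in metafemales over females, and all pairs by 0.38. In males over females the values were 0.18 and 0.19. Close neighbours could stand far apart, as zfh2 (-1.20) and Thd1 (-0.03) or CG32850 (-1.05) and PMCA (0.18). In each of these pairs the exons of the genes overlap on opposite strands in the annotation. The use of strand in counting is not given in the sources used here, so how reads of the overlapping parts were assigned is not known.

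**Figure D4:**
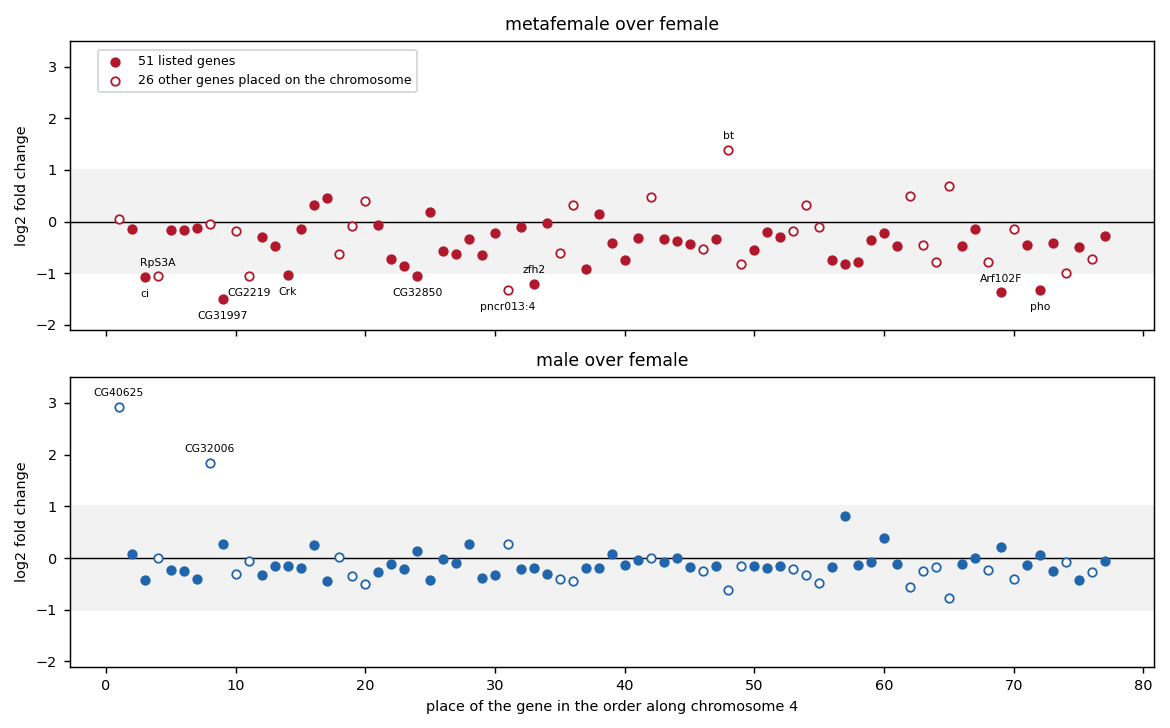
Log2 fold change over females (value + 1 CPM) of 77 genes placed on chromosome 4, in the order of the genes along the chromosome, for metafemales (top) and males (bottom); filled points are the 51 listed genes and open points the 26 others, and names mark values beyond 2-fold as deposited. Of the 7 filled points below the band in metafemales, 5 lie among the first 24 listed genes. The others are Arf102F and pho, at places 69 and 72 of the 77 genes. No filled point leaves the band in males.

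Transcripts of the same gene gave nearly the same values. Of the kept genes 33 have 2 or more transcripts in the table, up to 11 in PMCA. The range of log2 fold changes between transcripts of a gene had a median of 0.01 in each of the 3 comparisons, and the largest range was 0.17 (PMCA, metafemales over males). Levels differed more, as in pan, whose 10 transcripts had mean levels of 4.88 to 17.2 CPM and fold changes of -0.17 to -0.14 in metafemales over females. Transcripts of a gene share exons and are not independent, and the 6 transcripts of Ank had 4 distinct sets of values. Exons of 17 of the 51 genes overlap those of another annotated gene, in all 17 on the opposite strand, and Thd1 also overlaps a noncoding RNA on the same strand.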

How the data were processed

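The members and gene lists were chosen with earlier results of these data known. Per the submitters' processing notes, TopHat and HTSeq were used with the build dm3. No version, annotation or strand setting is given in the sources used here. The authors deposited, for each group, the fraction of transcript counts per transcript, in 1 table of 19040 autosomal and 1 of 3698 X-linked transcripts whose columns together sum to 1. These fractions were multiplied to counts per 1000000 (CPM). In 100% of cases low values (under 0.05 CPM) were sums of whole multiples of 3 steps per column (relative tolerance 1e-05), so a column was read as the mean of 3 libraries' shares, with the counting error of 269 M (metafemale), 169 M (male) and 226 M (female) counts. These depths are inferred, not stated by a label. Intervals at 95% (exact binomial, ratio of counts) cover counting error only. Without molecular identifiers, reads are not independent molecules. The level given by 3 counts is 0.0112, 0.0178 and 0.0133 CPM.

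The transcript with the highest mean stood for its gene, genes averaging 1 CPM or more were kept (9208 autosomal, 1734 X-linked), and log2 fold changes use value + 1 CPM, so that changes of low genes are understated. The planned count test needs values per library and could not be run. The Release 6 annotation differs in build from dm3, so it gave current symbols, chromosome, gene order and exon overlap only, by accession for 21508 transcripts and by name for 1120; 110 did not match. Genes named in the text are the members apart from 1 that counts include and that is not reported here by name, with every member past 2-fold and the 5 highest and lowest of each comparison among them, 6 regulators, and other chromosome 4 genes past 2-fold. A planned promoter motif search was not run. Alternatives were other added values, minimum levels, scalings, values per gene and member lists, and, added after seeing the data, a fold of 1.5 and a split of the rest by level. Steps, offset and intervals were tested on simulated data. Python 3.11.15, pandas 2.3.3, numpy 2.4.6, scipy 1.17.1 and matplotlib 3.10.9 were used. No sequence was used here.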

Additional observations from a re-analysis of the deposited data

How the results depend on the processing

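No paired analysis was possible because the authors gave 1 pooled column per group and the columns carry no replicate number; for the same reason no replicate could be left out. The difference between the chromosome 4 median and the median of the other autosomal genes in metafemales over females (-0.12) was -0.05 with 0.1 CPM added, 0.01 and thus of opposite sign with nothing added, -0.24 with no minimum level, -0.03 with a minimum of 10 CPM and -0.01 with median-of-ratios scaling. In males over females (-0.14) it was -0.09 with a minimum of 10 CPM, and in metafemales over males (0.23) it was 0.06 with no minimum and 0.12 with 10 CPM. The cause of these moves was not tested. The number of genes 2-fold lower was 1 in metafemales over females and 3 in metafemales over males with median-of-ratios scaling, by construction of a scaling that raises metafemale ratios. With that scaling 2 genes were 2-fold higher in metafemales over males, and 20 of 51 changed sign in metafemales over females. With nothing added 1 gene was 2-fold higher in males over females. For all 77 genes that the annotation places on chromosome 4, the counts were 1 higher and 10 lower in metafemales over females (beside 4.28% and 12.3% of the genes outside the list), 2 higher and 0 lower in males over females (beside 15.9% and 1.79%), and 3 higher and 11 lower in metafemales over males (beside 7.47% and 31.2%), from more genes. Sums or medians over transcripts and scaling to the autosomal table gave differences of -0.13 to -0.10 in metafemales over females, -0.15 to -0.14 in males over females and 0.21 to 0.24 in metafemales over males, and moved the counts by less than 1.5 times. Counting error is small at this depth, and the spread between larvae was not measured.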

Other observations

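Beyond the 51, the annotation places 26 further genes of 1 CPM or more on chromosome 4, among them Rfabg and CG2219 (the listed RfaBp and Arl4). Of these, bt, which encodes the giant muscle protein projectin, was the 1 gene 2-fold higher in metafemales than in females as deposited, at 984 CPM in metafemales, 245 CPM in males and 377 CPM in females. It is itself one of the 10 muscle markers, of which 7 were 2-fold higher in metafemales than in females. The lipid carrier gene Rfabg (apolipophorin), made by the fat body, had 3770 CPM in metafemales, 1360 CPM in males and 2337 CPM in females. The ATP synthase gene ATPsyn-beta had 740, 355 and 525 CPM in those groups. Genes 2-fold lower in metafemales than in females were the ribosomal protein gene RpS3A (944 CPM in metafemales, 1963 CPM in males and 1964 CPM in females), CG2219 (now Arl4; 10.7, 22.6 and 23.4 CPM) and pncr013:4 (4.88, 16.7 and 13.7 CPM).

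In males 2 of these genes were 2-fold higher than in females, and both passed the minimum mean through the male column only. CG40625 (JYalpha, a sodium pump subunit needed for male fertility) had 0.129 CPM in metafemales, 7.35 CPM in males and 0.0943 CPM in females. CG32006 had 0.138, 3.20 and 0.172 CPM. With these genes included, the quartiles of the 77 chromosome 4 genes lay 0.27 (log2) apart in males over females, and 97.4% lay within 2-fold, against 82.3% of the autosomal genes outside the list of 51. Those other genes lay within 2-fold in 71.1% of cases from 1 to under 10 CPM and in 92.0% at 10 CPM or more. Summed over the most abundant transcript of each of the 77 genes, the level was 9184 CPM in metafemales, 6997 CPM in males and 8726 CPM in females. Of these sums Rfabg alone made up 3770, 1360 and 2337 CPM in the same order of groups. For the 51 genes alone, which leave out Rfabg and CG2219, the sums were 1937 CPM in metafemales, 2243 CPM in males and 2540 CPM in females. Rfabg was highest in metafemales, and the order of these sums depends on leaving it out.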
